A study of Mus musculus with 6 samples.

Results

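The genes described here are those for small nucleolar RNAs, small Cajal body RNAs and small nuclear RNAs in primary mouse hepatocytes kept under normoxia or hypoxia. They were taken by name: every row of the array table whose only gene symbol begins with Snora, Snord, Scarna or Rnu was a member, with the row of the highest mean for a gene with several rows. This gave 55 genes of 13725 named genes, each with 1 row. They were 31 box C/D genes (Snord), 17 box H/ACA genes (Snora), 4 Cajal body genes (Scarna), the spliceosomal RNA genes *Rnu11* and *Rnu2-10*, and *Rnu3a*, a gene for U3. All 55 were also found in the RefSeq annotation of GRCm38.p6, where their lengths ran from 53 to 275 bases.

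Hepatocytes of 3 wildtype C57BL/6 mice, 8 to 12 weeks old in the series description, were perfused out of the liver and attached to collagen. The methods name the substrain C57BL/6N and male mice. Each mouse gave 1 culture at 19.5% O2 (normoxia) and 1 culture at 1% O2 (hypoxia), so that 6 arrays were measured and the same 3 mice stand in both groups. The labels give 72 h of exposure. A shorter exposure and a slightly different normoxic oxygen level stand in the paper, and the values do not settle which holds. No transgene or vector was used. By the methods, cells of both groups were plated with serum, insulin and dexamethasone, a glucocorticoid drug, kept overnight with dexamethasone but no serum, and exposed without either. Total RNA was labeled as cDNA and read on the Affymetrix Mouse Gene 2.0 ST array, and the deposited values are RMA values, which are log2 intensities corrected for background, quantile-normalized and summarized over the probes of a transcript. All levels below are on this log2 scale, where a difference of 1 is a doubling of the signal. The sources do not say how the 15443 deposited rows were chosen from the array.

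Small nucleolar RNAs guide chemical changes of other RNAs by base pairing, box C/D RNAs placing a methyl group on the ribose and box H/ACA RNAs turning uridine into pseudouridine, mostly in ribosomal RNA. In mammals nearly all of them lie in introns of other genes, the host genes, and are trimmed out of the spliced intron by exonucleases while their core proteins protect them. A few, such as U3, and the spliceosomal RNAs have promoters of their own. Some guides act on the cutting of the ribosomal RNA precursor and not on its modification, and the Cajal body RNAs guide changes of the spliceosomal RNAs.

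Small RNAs that lie within 1 host gene may be cut from 1 transcript, so their rows were set side by side. Hosts were found by position without strand, so a shared promoter is an assumption here. The window from 200 bases before to 20 bases after the annotated start is shown for 3 hosts, from RefSeq (GRCm38.p6). They were picked for unlike differences among their small RNAs, which were not tested against each other. *Ncl*, the nucleolin gene, lies on the minus strand (chr1:86359436-86359655). *Snhg12* (chr4:132308478-132308697) and *2410006H16Rik* (chr11:62602677-62602896) lie on the plus strand. Capitals mark matches to TATAA, the core of a TATA box, to CTTTC, a pyrimidine tract of the kind found at starts of genes for the translation machinery, or to ACGTG, the core bound by hypoxia-inducible factors.
Ncl: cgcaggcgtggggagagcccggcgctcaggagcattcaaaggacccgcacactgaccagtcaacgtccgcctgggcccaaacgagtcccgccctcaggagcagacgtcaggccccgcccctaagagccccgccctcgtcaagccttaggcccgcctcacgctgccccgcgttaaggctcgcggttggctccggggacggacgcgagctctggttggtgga
Snhg12: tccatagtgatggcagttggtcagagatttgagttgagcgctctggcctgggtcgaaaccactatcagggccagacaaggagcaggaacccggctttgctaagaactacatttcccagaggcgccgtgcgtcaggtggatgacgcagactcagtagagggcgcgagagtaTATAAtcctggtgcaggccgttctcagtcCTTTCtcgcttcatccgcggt
2410006H16Rik: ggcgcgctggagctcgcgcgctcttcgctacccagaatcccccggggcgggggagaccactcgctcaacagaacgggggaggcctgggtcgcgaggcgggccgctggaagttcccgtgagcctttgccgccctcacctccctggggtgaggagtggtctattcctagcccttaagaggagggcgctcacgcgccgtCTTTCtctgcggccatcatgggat
On both strands of windows of this size, ACGTG was found in 15.4% of 32851 promoters, CTTTC in 46.2% and TATAA in 19.6%. CACGTG, the E-box, holds ACGTG within it and was found in 5.81%. None of the 3 windows shown held ACGTG. Among 30 hosts with a promoter in the table, 12 held ACGTG in a window, where a host may have several annotated starts and so several windows. A match is only a description of these letters.

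Under hypoxia the small RNA genes split by class. Of the 17 box H/ACA genes, 14 rose and none fell, whereas of the 31 box C/D genes 7 rose and 1 fell. Over all 15443 rows, limma called 15.5% higher and 23.9% lower (39.5% in either direction) at a Benjamini-Hochberg adjusted p under 0.05. The median log2 difference was 1.29 for box H/ACA and -0.08 for box C/D, beside -0.05 over all rows. Among all 55 members, 24 rose, 1 fell and 30 did not pass the test. With the mouse as a block 22 members were higher and none lower, beside 13.3% higher and 20.1% lower over all rows. With a fold of at least 2 asked for as well, 12 box H/ACA and 2 box C/D genes were left, beside 5.89% of all rows. Without mouse 3, 14 members were higher, 10 of them box H/ACA. The count of 7 box C/D genes higher was 2 without mouse 2 or mouse 3, 3 without the normoxic array of mouse 1 or of mouse 2, and 4 without mouse 1 or without either array of mouse 3. For the fits with arrays left out, the share of all rows called was not counted, so these counts have no background beside them. The classes were not tested against each other, since genes on 1 array are not replicates.

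The order of the classes was the same within each mouse. The median difference of the box H/ACA genes was 1.45, 1.05 and 1.38 in mouse 1, 2 and 3. That of the box C/D genes was 0.06, 0.08 and -0.24. The box C/D median therefore lay below the box H/ACA median by 1.40, 0.97 and 1.62 in the 3 mice. Normoxic and hypoxic arrays did not overlap for 15 of 17 box H/ACA genes, all with hypoxia higher, and for 10 box C/D genes with hypoxia higher and 10 with hypoxia lower. Over all rows, 22.4% did not overlap with hypoxia higher and 31.9% with hypoxia lower. The smallest rise of a box H/ACA gene was in mouse 2 for 14 of 17 genes, and the lowest difference of a box C/D gene was in mouse 3 for 20 of 31 genes.

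**Figure D1:**
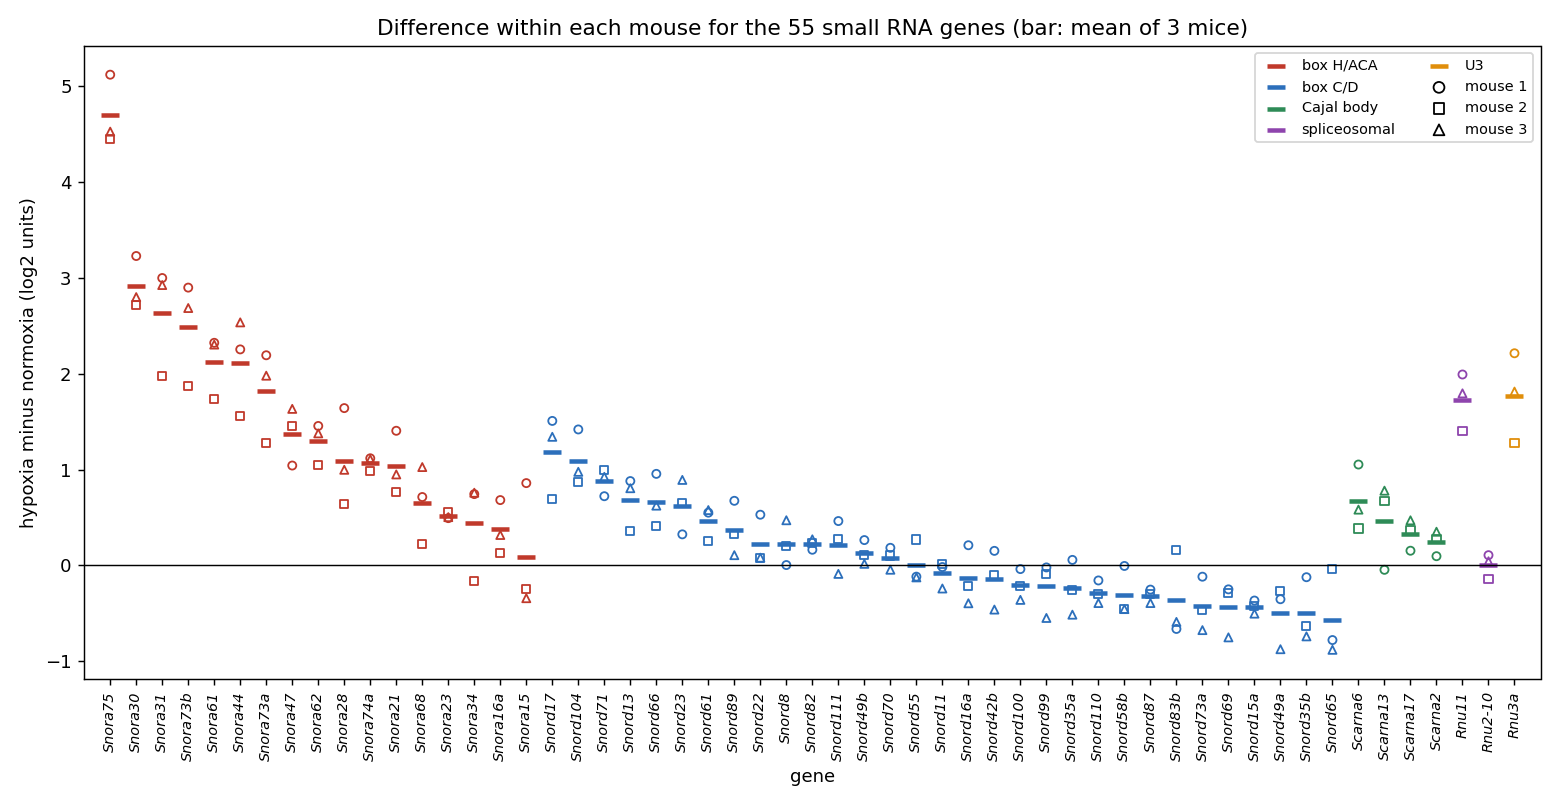
Hypoxia minus normoxia in log2 units for each of the 55 genes, with 1 point for each mouse and a bar at the mean of 3 mice, grouped by class. All 17 box H/ACA bars lie above 0, from 0.09 to 4.70, while box C/D bars run from -0.56 to 1.18 and 15 of 31 lie above 0.

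*Snora75*, a box H/ACA RNA from an intron of the nucleolin gene, had the largest difference of the 55. Its level was 4.63, 5.11 and 5.74 in the normoxic arrays of mouse 1, 2 and 3 and 9.75, 9.56 and 10.26 in their hypoxic arrays. Every hypoxic array was far above every normoxic one. The means were 5.16 ± 0.56 (SD, n = 3) and 9.86 ± 0.36 (SD, n = 3), a log2 difference of 4.70 (standard error 0.31, adjusted p = 0.000293, limma). This is 25.9-fold on the array's scale, and its normoxic arrays lay within the dimmest 25% of rows, which ended at 6.86.

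*Snord82*, a box C/D RNA of the same gene, was measured at 10.95, 10.96 and 11.11 under normoxia and at 11.12, 11.19 and 11.39 under hypoxia. The groups did not overlap, but by a narrow margin. The log2 difference was 0.22 (standard error 0.14, adjusted p = 0.230, limma), with a 95% interval from -0.10 to 0.55. *Ncl* itself, a nucleolar protein of ribosome assembly, rose from 9.16 ± 0.21 (SD, n = 3) to 10.31 ± 0.23 (SD, n = 3), by 1.15 (adjusted p = 0.00321). The 3 rows of this locus thus differed by 4.70, 1.15 and 0.22, with the box H/ACA RNA on top. *Snord82* was named after its value was seen.

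*Snhg12*, a noncoding gene known as a host of small RNAs, holds 4 members, more than any other host. *Snora44* rose from 8.85, 9.43 and 8.82 under normoxia to 11.10, 10.99 and 11.36 under hypoxia, by 2.11 (standard error 0.21, adjusted p = 0.000760). *Snora61* rose from 7.28, 7.63 and 7.38 to 9.60, 9.36 and 9.69, by 2.12 (standard error 0.16, adjusted p = 0.000404). Both sets of hypoxic arrays lay well above the normoxic ones in all mice. The third box H/ACA member, *Snora16a*, was at 9.54, 9.73 and 9.81 under normoxia and at 10.22, 9.86 and 10.13 under hypoxia. Its groups did not overlap, yet the difference of 0.38 did not pass the test (adjusted p = 0.0888).

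The box C/D member of *Snhg12*, *Snord99*, was at 11.38, 11.38 and 11.68 under normoxia and at 11.36, 11.29 and 11.13 under hypoxia. Its hypoxic arrays lay just below the normoxic ones, and its difference of -0.22 did not pass the test (adjusted p = 0.271). The host row differed by 0.51 (adjusted p = 0.0845), which did not pass either. From 1 host gene, then, the differences ran from -0.22 to 2.12.

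*2410006H16Rik* holds 3 box C/D members and no box H/ACA member on the list. The host rose from 7.77 ± 0.28 (SD, n = 3) to 8.75 ± 0.16 (SD, n = 3), by 0.98 (adjusted p = 0.00618). *Snord49a* went the other way, from 9.75, 9.64 and 9.80 to 9.39, 9.38 and 8.93, without overlap. It fell by 0.50 (standard error 0.17, adjusted p = 0.0493, limma) and is the only box C/D gene called lower. With the mouse as a block its adjusted p was 0.0888. *Snord65* differed by -0.56 (adjusted p = 0.0873) and *Snord49b* by 0.13 (adjusted p = 0.452). *Snord49a* and *Snord49b* are close copies by name, and how the array's probes divide between them is not given in the sources used here.

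**Figure D2:**
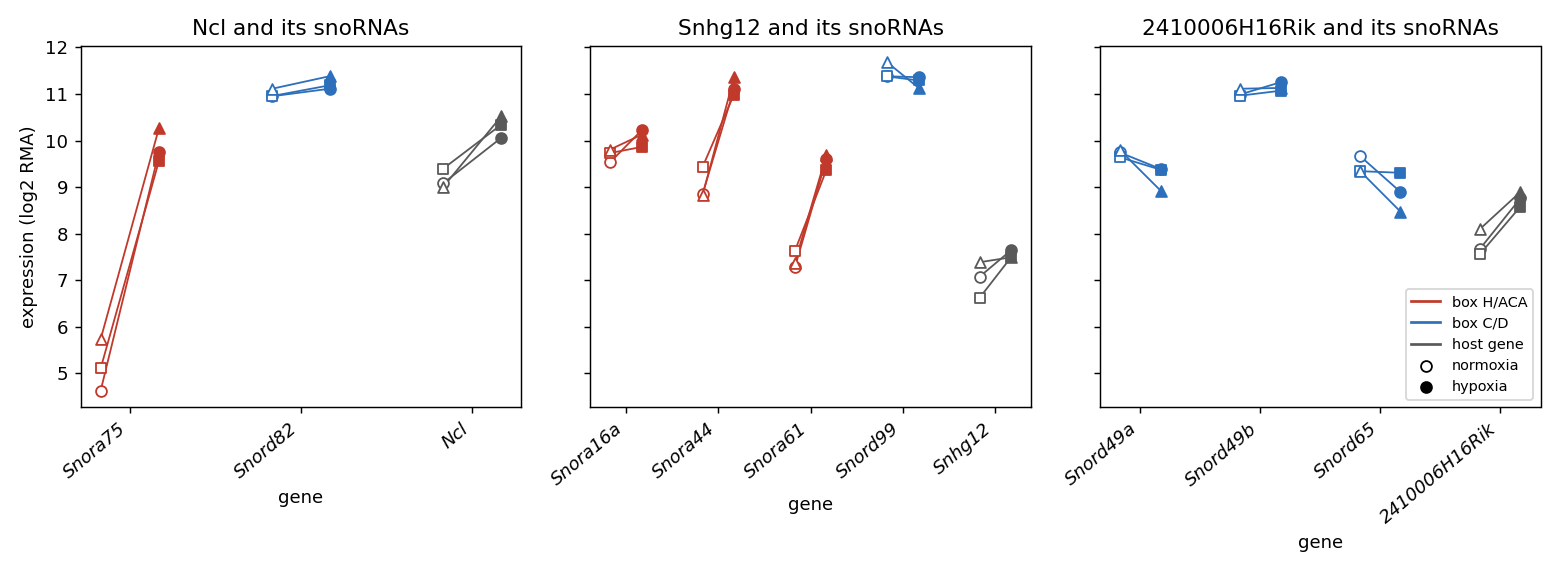
Log2 RMA level of 3 host genes and of their small RNAs in each of the 6 arrays, normoxia beside hypoxia, with 1 line for each mouse (circle for mouse 1, square for mouse 2, triangle for mouse 3). *Snora75*, *Snora44* and *Snora61* climb by 4.70, 2.11 and 2.12 while *Snord82* in the host of *Snora75* and *Snord99* in the host of *Snora44* and *Snora61* differ by 0.22 and -0.22. *Snord49a*, in a host with box C/D members alone, differs by -0.50.

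Among the other box H/ACA genes, *Snora30*, inside *Srcap*, the gene of a chromatin remodeling ATPase, was at 5.41, 5.55 and 6.28 under normoxia and at 8.64, 8.27 and 9.08 under hypoxia. The groups were wide apart, with all normoxic arrays within the dimmest 25% of rows, and the difference was 2.91 (standard error 0.29, adjusted p = 0.000842, limma). *Srcap* itself fell by 0.61 (adjusted p = 0.0105). *Snora31* lies in *Tpt1*, which encodes an abundant growth-related protein. It rose from 6.89, 7.37 and 7.05 to 9.88, 9.35 and 9.98, by 2.63 (standard error 0.21, adjusted p = 0.000511). *Tpt1* differed by 0.29 and did not pass (adjusted p = 0.118).

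*Snora73a* and *Snora73b*, the U17 RNAs, act in the cutting of the precursor of 18S ribosomal RNA and not as modification guides. Both lie in *Snhg3*, a noncoding host. *Snora73b* rose from 7.77, 7.97 and 7.97 to 10.67, 9.83 and 10.65, by 2.48 (standard error 0.24, adjusted p = 0.000757). *Snora73a* rose from 7.56, 7.88 and 7.79 to 9.75, 9.16 and 9.77, by 1.82 (standard error 0.20, adjusted p = 0.00116). In both, mouse 2 had the lowest hypoxic level. The 2 RNAs are near copies, so their rows may share signal, and *Snhg3* rose as well, by 0.95 (adjusted p = 0.00264).

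*Snora47* rose from 8.48, 8.25 and 8.47 to 9.52, 9.70 and 10.10, by 1.38 (standard error 0.18, adjusted p = 0.00197). The gene around it, *Zbed3*, a regulator of Wnt signaling, moved in the opposite direction and fell by 1.56 (adjusted p = 0.000972). *Snora62*, inside the ribosomal protein gene *Rpsa*, rose by 1.29 (standard error 0.14), from 8.21, 8.33 and 8.20 to 9.66, 9.38 and 9.58. The remaining box H/ACA genes that rose were *Snora28*, *Snora74a*, *Snora21*, *Snora68* and *Snora23*, by 0.52 to 1.09. The normoxic means of *Snora28*, *Snora74a* and *Snora68* lay within the dimmest 25% of rows. *Snora68* had an adjusted p of 0.0324, and of 0.0581 with the mouse as a block. *Snora34* (0.45) and *Snora15* (0.09) overlapped between the groups, and both means of *Snora15* (6.28 and 6.37) lay within the dimmest 25% of rows.

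Of the box C/D genes, *Snord17* and *Snord104* rose most. *Snord17*, an unusually long box C/D RNA of 221 bases inside *Snx5*, a gene of endosomal sorting, rose from 7.29, 7.56 and 7.49 to 8.80, 8.25 and 8.83. The difference was 1.18 (standard error 0.19, adjusted p = 0.00382), and *Snx5* rose by 0.56. *Snord104* rose from 10.68, 10.86 and 10.97 to 12.09, 11.73 and 11.95, by 1.09 (standard error 0.16, adjusted p = 0.00248). In both genes the lowest hypoxic array lay above the highest normoxic one.

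*Snord71* rose by 0.88 (adjusted p = 0.00947), from 8.93, 8.53 and 9.01 to 9.66, 9.53 and 9.94, while a gene around it, *Ap1g1*, which encodes a subunit of a clathrin adaptor, fell by 0.69 (adjusted p = 0.00589). A shorter annotated gene, *Gm17344*, also holds *Snord71* but had no row of its own. *Snord13*, the U13 RNA, which guides an acetylation of 18S ribosomal RNA, rose by 0.68 (adjusted p = 0.0295), from 10.27, 10.33 and 10.54 to 11.15, 10.69 and 11.35. It has no host in the annotation. *Snord66* in *Eif4g1* rose by 0.66 (adjusted p = 0.0159) and *Snord23* in *Nop53* by 0.62 (adjusted p = 0.0291). *Eif4g1*, the scaffold of the cap-binding complex, differed by -0.03, a value whose sign turned under other centrings, and *Nop53*, a ribosome assembly factor, rose by 0.81.

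At the threshold itself, *Snord61* was just inside among the genes that rose (0.46, adjusted p = 0.0474) and *Snord49a* among those that fell. *Snord69* (-0.43, adjusted p = 0.0506) and *Snord15a* (-0.43, adjusted p = 0.0521) were just outside. *Snord61* lies in *Rbmx*, an RNA-binding protein gene that differed by -0.24 (adjusted p = 0.206). *Snord69* lies in *Gnl3* and *Snord15a* in *Rps3*, which differed by 0.23 (adjusted p = 0.344) and rose by 0.55 (adjusted p = 0.0113). The number of box C/D genes called lower is therefore sensitive to small changes of the fit. It was 7 with the trend option of eBayes, and 5 without the hypoxic array of mouse 1. It was 0 with the mouse as a block, when any single normoxic array was left out or without the hypoxic array of mouse 3. Apart from the block, the share of all rows called was not counted for these fits.

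The other box C/D genes did not pass the test. *Snord35b* (-0.50), *Snord73a* (-0.42), *Snord83b* (-0.36) and *Snord89* (0.37) had the larger differences among them. *Snord100*, at 12.56, 12.64 and 12.78 under normoxia and 12.52, 12.42 and 12.42 under hypoxia, is a box C/D RNA with a bright row. Its groups lay side by side without overlap, and its difference of -0.20 did not pass (adjusted p = 0.240). Its host *Rps12*, a ribosomal protein gene, rose by 0.87 (adjusted p = 0.00248). *Snord110* differed by -0.28 (adjusted p = 0.109) inside *Nop56*, a core protein gene of box C/D particles that differed by 0.33 (adjusted p = 0.0703). All 6 were named after their values were seen.

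Hosts were therefore compared with members for all rows that allowed it. In the annotation 49 of the 55 members lie within another gene, 41 genes in all, and for 39 members that gene was measured. The table gives no strand, so a surrounding gene may be on the opposite strand. For *Snord71* and *Snord8* a shorter annotated gene without a row of its own also holds the member. The longer genes *Ap1g1* and *Chd8*, which both fell, were taken as their hosts. For box H/ACA, 12 hosts of 15 members were measured, of which 4 rose and 2 fell, with a median of 0.26. The member's difference was above the host's for 13 of the 15, by a median of 1.05. For box C/D, 20 hosts of 23 members were measured, of which 9 rose and 3 fell, with a median of 0.37. There the member's difference was above the host's for only 6 of 23, with a median of -0.66. Of the 12 box H/ACA genes called higher with a measured host, 7 had a host that was not called higher.

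Across the 39 pairs, the difference of the member and that of its host were nearly unrelated (Pearson's r = -0.05, Spearman's rho = -0.20). Within classes r was 0.29 for 15 box H/ACA and -0.40 for 23 box C/D pairs. These are descriptions over genes that share arrays and, in part, hosts. A probe within a small RNA also pairs with the unspliced host transcript, and the 2 sources of signal cannot be told apart on these arrays.

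**Figure D3:**
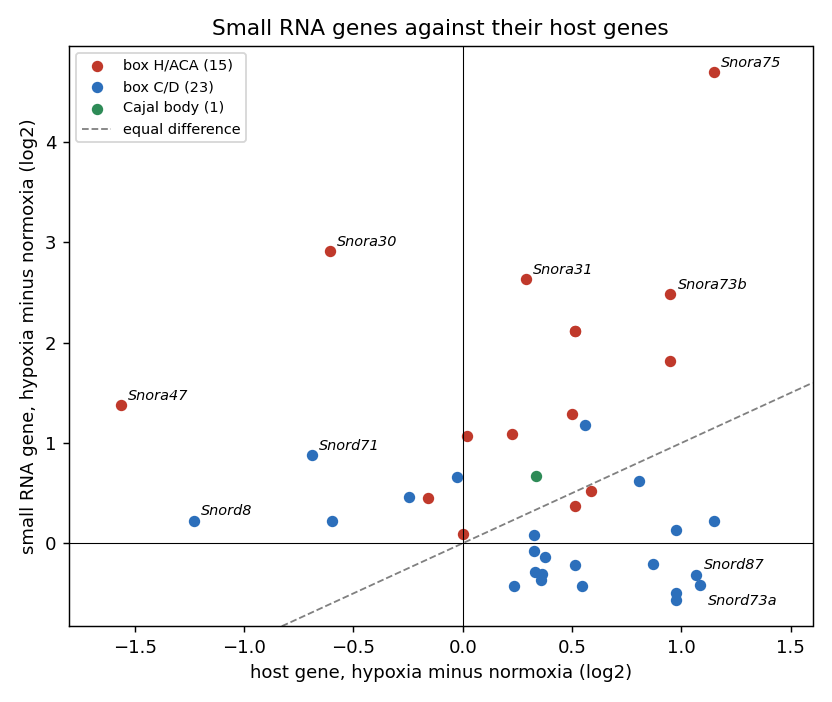
Log2 difference between hypoxia and normoxia of 39 small RNA genes (vertical) against that of the host gene (horizontal), colored by class, with a dashed line where both are equal. Of the box H/ACA points 13 of 15 lie above the line, and of the box C/D points 6 of 23.

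The classes also differed in length and in signal. Box H/ACA genes were annotated at 62 to 205 bases (median 122) and box C/D genes at 53 to 221 bases (median 68). Of 23 members of 100 bases or more 16 rose and none fell, and of 32 shorter members 8 rose and 1 fell. A span from 90 to 150 bases, where both classes have members, was chosen after the data were seen. There 9 of 12 box H/ACA genes rose with a median of 1.19, and 2 of 7 box C/D genes rose with a median of 0.23. Lengths were not matched between the classes within this span. Length and difference had r = 0.35 and rho = 0.53 over all 55 genes, and r = -0.11 within box H/ACA and 0.37 within box C/D. The methods name a silica column kit, which holds back short RNAs incompletely, for the RNA isolation described with qRT-PCR, and do not say separately which kit served the arrays. The part of length in the difference between the classes was not tested.

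The normoxic signal of the box H/ACA rows had a median of 7.43 and that of the box C/D rows one of 9.06, and the hypoxic medians were 9.55 and 9.48. Rows of different probes are not on 1 scale of RNA amount, so these medians only say where on the array's range each class lay. Normoxic level and difference had r = -0.53 over all members, -0.38 within box H/ACA and -0.05 within box C/D. The part of the normoxic level was not tested.

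**Figure D4:**
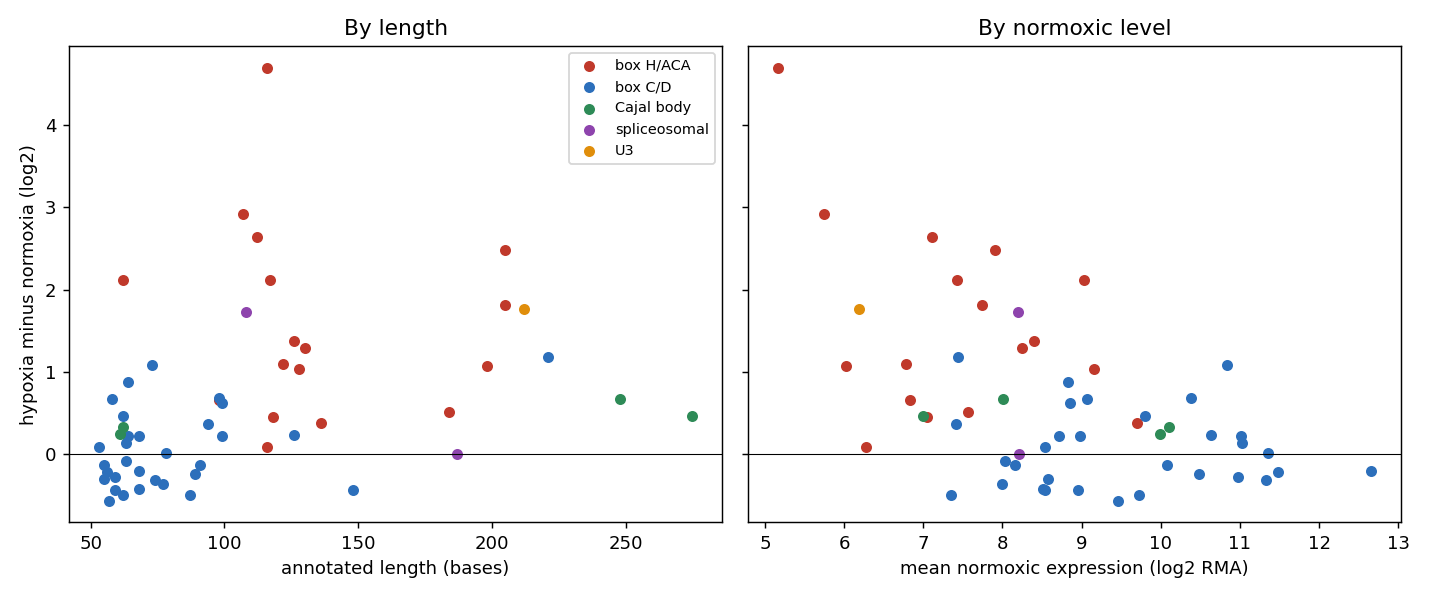
Log2 difference between hypoxia and normoxia of the 55 genes against annotated length in bases (left) and against mean normoxic log2 level (right), colored by class. Box H/ACA genes, at 62 to 205 bases and at normoxic means from 5.16 to 9.69, all lie above 0. No box H/ACA gene lies at the ends of the axes beyond these. Box C/D genes stay between -0.56 and 1.18.

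The RNAs outside the 2 guide classes gave mixed values. *Rnu11*, the U11 RNA that recognizes the start of minor class introns, rose from 8.14, 8.06 and 8.37 to 10.13, 9.47 and 10.17, by 1.73 (standard error 0.22, adjusted p = 0.00164). *Rnu2-10*, a gene of the U2 RNA that pairs with the branch site, was at 7.85, 8.33 and 8.47 under normoxia and at 7.95, 8.18 and 8.51 under hypoxia. These arrays overlapped fully, and the difference of 0.00 (adjusted p = 0.995) had a 95% interval from -0.51 to 0.51. *Rnu3a*, a gene of U3, the box C/D RNA needed for early cuts of the ribosomal RNA precursor, rose from 6.02, 6.67 and 5.86 to 8.24, 7.95 and 7.67. Its difference was 1.77 (standard error 0.25, adjusted p = 0.00239), and its normoxic arrays lay within the dimmest 25% of rows. U2 and U3 have several near-identical gene copies, so that these rows cannot be assigned to 1 copy.

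Of the Cajal body RNAs, *Scarna6* rose by 0.67 (standard error 0.16, adjusted p = 0.0156), from 7.89, 8.10 and 8.02 to 8.94, 8.49 and 8.60. Its host *Atg16l1*, an autophagy gene, differed by 0.33 (adjusted p = 0.105). *Scarna13*, *Scarna17* and *Scarna2* differed by 0.47, 0.33 and 0.24 and did not pass. All 4 were thus positive, and 1 of 4 passed.

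A further 22 rows carry a matching symbol together with another gene's and were kept out of the members. The gene *Eif4a2*, a translation initiation helicase, gives a case like *Ncl*. Its row shared with *Snora81* rose from 5.52, 5.07 and 5.88 to 7.89, 7.35 and 8.14, by 2.30 (adjusted p = 0.00136). Its row shared with *Snord2* was at 6.78, 6.98 and 7.15 and at 7.62, 6.95 and 7.18, with a difference of 0.28 (adjusted p = 0.308) and overlapping groups. A row shared by 3 copies of the U1 RNA gene (*Rnu1b1*, *Rnu1b2* and *Rnu1b6*) rose by 2.30 (standard error 0.20, adjusted p = 0.000609). These rows were named after their values were seen.

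Other noncoding rows served as a comparison. Of 25 microRNA genes 7 rose and 1 fell, with a median of 0.35, and of 303 long noncoding RNA genes 76 rose and 34 fell, with a median of 0.33. Of 13233 protein-coding genes 1763 rose and 3387 fell, with a median of -0.09. Among them the ribosomal protein genes moved mostly 1 way as well: 35 of 48 rose and none fell, with a median of 0.63. The box H/ACA median of 1.29 lay above all of these medians, and the box C/D median of -0.08 lay near that of the protein-coding genes. The differences between these classes were not tested.

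**Figure D5:**
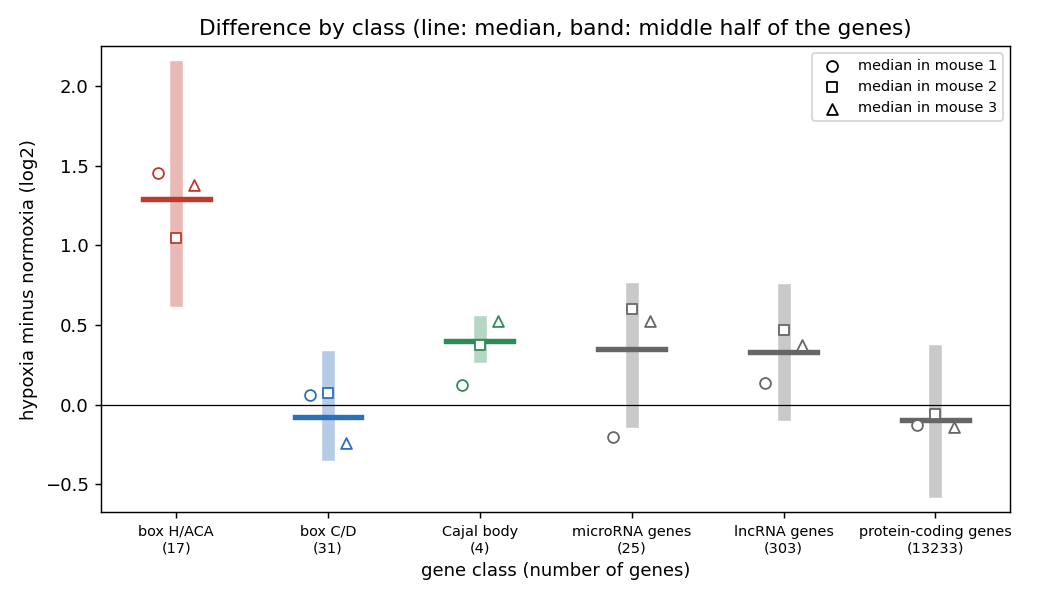
Log2 difference between hypoxia and normoxia by gene class, with a line at the median over genes, a band over the range from the lower to the upper quartile and a point for the median within each mouse. The box H/ACA medians of the 3 mice (1.45, 1.05 and 1.38) lie above those of the other 5 classes plotted. The 3 spliceosomal and U3 genes are not plotted. Their median was 1.73, and 1.99, 1.27 and 1.79 in mouse 1, 2 and 3.

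The proteins of both particles were measured in part. All 4 measured core genes of the box C/D particle were positive and 2 rose, *Fbl*, the methyltransferase fibrillarin (0.81, adjusted p = 0.0211, and 0.0535 with the mouse as a block), and *Rrp9*, a U3 protein (0.63, adjusted p = 0.0216). Of the 4 core genes of the box H/ACA particle, *Nop10* rose by 0.94 (adjusted p = 0.00324) and *Nhp2* by 0.83 (adjusted p = 0.00536). The pseudouridine synthase gene *Dkc1* differed by 0.16 and *Gar1* by -0.18, and neither passed. None of 11 measured assembly factor genes passed the test. Of 9 Cajal body and cap factor genes, *Tgs1*, which makes the trimethyl cap, fell by 0.95 and *Ell* by 0.57.

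Of 30 genes of the U3 processome and early ribosome assembly, *Imp4*, a U3 protein, rose by 0.60 and *Rcl1* fell by 0.92, with a median of -0.10. Genes for transcription of small nuclear RNAs (SNAPc and Integrator) had 10 of 21 lower and none higher, among them *Snapc2* (-1.09) and *Ints5* (-1.32). Of 20 RNA polymerase III genes 8 were lower and none higher (6 and 0 with the mouse as a block). Among the 8 was *Maf1*, a repressor of this polymerase, which fell by 1.28 (adjusted p = 0.00115, limma). Of 22 genes of the nuclear exosome and trimming 7 were lower and 1 higher (4 and 0 with the mouse as a block). *Zcchc8* (-1.05, adjusted p = 0.00368, limma) and *Mtrex* (-0.61, adjusted p = 0.00971) had the smallest adjusted p of this list. The 1 gene called higher was *Dis3* (0.43, adjusted p = 0.0365). *Dbr1*, which opens the intron lariat from which guides are freed, fell by 0.65 (adjusted p = 0.0104), and *Parn*, a trimming exonuclease of box H/ACA RNA ends in human cells, fell by 0.72 (adjusted p = 0.0249, not called with the mouse as a block). Of the nonsense-mediated decay genes, through which many noncoding hosts are degraded, 3 of 10 were lower and none higher. These counts stand beside 15.5% higher and 23.9% lower over all rows.

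Of 18 measured noncoding host genes 5 rose and 2 fell (5 and 1 with the mouse as a block). These are 27.8% and 11.1%, near the 25.1% and 11.2% of the long noncoding RNA genes. *Snhg6* rose by 1.07 and *Meg3* by 1.72, while *Snhg11* fell by 2.32. The Sm proteins, which ring the spliceosomal RNAs, had 2 of 7 higher (1 with the mouse as a block). The U1, U2 and U12 particle proteins had 5 of 21 higher and 6 lower, or 3 and 3 with the block. Over all rows 15.5% were higher and 23.9% lower. *Snrnp35*, a protein of the U11 particle, was at 6.52 under normoxia and 4.68 under hypoxia, both within the dimmest 25% of rows, and was called lower (adjusted p = 0.00239). *Zcrb1*, another protein of minor class splicing, rose by 0.93 (adjusted p = 0.00870).

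As checks on the arrays, all 4 hypoxia markers rose, with a mean level of 7.40 to 7.63 under normoxia and 9.61 to 9.96 under hypoxia. The 7 hepatocyte markers had a mean level of 12.19 to 12.29 under normoxia and 12.11 to 12.15 under hypoxia (2 higher, 2 lower). The 4 measured sinusoidal endothelial markers had a mean level of 7.15 to 7.47 and 7.81 to 7.88 (3 higher), and the 5 Kupffer cell markers one of 7.25 to 7.35 and 7.60 to 7.89 (2 higher). Of the stellate and the cholangiocyte markers, 4 measured in each, 1 was higher and 1 lower in both sets. Mean levels were 6.65 to 7.01 and 6.97 to 7.22 for stellate cells, and 7.59 to 8.05 and 7.84 to 8.30 for cholangiocytes. Of 2 lymphocyte markers 1 was higher, with mean levels of 8.42 to 8.67 and 8.59 to 9.26. The defining Kupffer marker *Clec4f* was at 6.47 and 6.30, within the dimmest 25% of rows in normoxia. The 2 markers of this set that rose were *Cd68*, by 1.35 (adjusted p = 0.00136, limma), and *Marco*, by 0.57 (adjusted p = 0.0271, limma). *Marco* was not called with the mouse as a block. *Adgre1* and *Csf1r* differed by 0.36 and 0.22 and did not pass. In such bulk cultures a change in the share of a cell type and a change of RNA per cell cannot be told apart, and the part of other cells in the values of the small RNAs was not tested. Array medians lay between 7.42 and 7.49, and hypoxic arrays correlated less with one another (r from 0.903 to 0.938 across rows) than normoxic ones (0.958 to 0.963). Precision is set by the number of arrays, 3 in each group.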

How the data were processed

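RNA of cultured hepatocytes of 3 mice was measured under normoxia and hypoxia on 6 arrays. The authors deposited log2 values, made by RMA with oligo and annotated with NetAffx. No detection calls or background values were used, and no array was left out. All 15443 rows entered 1 linear model with the condition as its only term (limma 3.58.1, R 4.3.3, moderated by eBayes), and p-values were adjusted after Benjamini-Hochberg and called at 0.05. Intervals are 95% intervals of that fit. The labels give the mouse of each array, so the arrays are paired by design, and the correlation of the paired arrays' deviations from their group means was -0.11 in mouse 1, 0.02 in mouse 2 and 0.10 in mouse 3. The first alternative took the mouse as a block. An exact permutation test of 3 against 3 arrays cannot go below p = 0.1 and none was run. Hosts, lengths and promoters came from RefSeq (GRCm38.p6), and a host was the shortest measured gene whose span holds the member.

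Members named were all spliceosomal, U3 and Cajal body genes, the 8 largest rises and falls of each class with 1 direction in all mice, the 4 smallest adjusted p of each class, genes next to the threshold, members of hosts with 3 or more members, and their hosts. In the protein lists described above, up to 4 genes were named by adjusted p. Not described were RNA polymerase I (3 of 14 genes higher, 7 lower) and LSm proteins (2 of 11 higher, 2 lower). The SMN complex (1 of 9 higher, 2 lower) and U4, U5 and U6 particle proteins (1 of 18 higher, 3 lower) were not described either. Over all rows 15.5% were higher and 23.9% lower. Other genes (*Snord82*, *Snord100*, *Snord110*, *Parn*, *Dis3*, *Snord35b*, *Snord73a*, *Snord83b*, *Snord89*, *Snord8* and *Chd8*, and members given to account for all of a class) were named after their values were seen. Members and lists were chosen with earlier results of these data known. Alternatives were eBayes options, filters, normalization and centring, the rows taken, other thresholds and leaving out each array or mouse. The span of 90 to 150 bases and the use of every matching row were chosen after seeing the data.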

Additional observations from a re-analysis of the deposited data

How the results depend on the processing

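The higher count of box H/ACA genes stayed within 1.5 times of 14 in each alternative run, between 10 (the lowest, without mouse 3 among others) and 19 (every row with a matching symbol), and no box H/ACA gene was lower in any of them. With the mouse as a block, 22 members were higher and 0 lower, 13 of the higher ones box H/ACA and 6 box C/D. The pairing changed the call of *Snora68*, *Snord61* and *Snord49a* among the members.

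The single fall did not hold. The count of members lower, and of box C/D genes lower, was 0 with the block, robust eBayes, either centring, a fold of 2 or adjusted p under 0.01. It was 7 with trend eBayes (with or without block and robust option), 4 without the lowest 25% of rows, 2 after quantile normalization again, and 3 with every matching row. Box C/D genes higher numbered 2 with a fold of 2 and 3 at 0.01, against 7. Beside the main fit, shares over all rows were counted only with the block and with a fold of 2.

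Leaving out 1 array or 1 mouse, which assumes for 2 arrays a spread like that of the rest, gave 14 to 25 members higher, 0 to 5 lower, 10 to 15 box H/ACA and 2 to 7 box C/D higher, and 0 to 5 box C/D lower. The count of 14 was without mouse 3. No share over all rows was counted for these fits. The box C/D median ran from -0.13 to 0.03, the box H/ACA median from 1.21 to 1.37 and their difference from -1.46 to -1.22.

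The box H/ACA median was 1.04 with every matching row. At 90 to 150 bases the box C/D median was 0.23 and the class difference -0.96. Restricted to members with a mean above the median of all rows, the box H/ACA median was 1.82 and the class difference -1.85. That mean is taken over both groups, and *Snora75* and *Snora31* passed only through their hypoxic arrays, so these values are no check of the difference. With 1 value per host gene the box C/D against box H/ACA difference was -1.26, and with U3 counted as box C/D -1.33.

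Values near 0 turned sign. *Eif4g1*, at -0.03, gave 0.0346 centred on brighter rows and 0.0190 centred on all rows, and from -0.0709 to 0.0190 when an array or mouse was left out. *Rnu2-10*, at 0.00, gave from -0.1814 to 0.1329 when an array or mouse was left out. These 12 of the named members kept their call in all 21 planned settings that gave them a value: *Snora75*, *Snora30*, *Snora31*, *Snora44*, *Snora47*, *Snora61*, *Snora73a*, *Snora73b*, *Snord17*, *Snord104*, *Rnu11* and *Rnu3a*. Among these settings, the filter that left out the lowest rows took the mean over both groups. *Snora75*, *Snora30* and *Rnu3a*, dim under normoxia, passed that filter only through their hypoxic arrays. For these genes the kept call under that filter is therefore no check of the difference. The cause of the changes above was not tested. With 3 mice and no detection calls, differences of dim rows are the least certain, and the arrays cannot tell a mature small RNA from its precursor.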

Other observations

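The 22 rows that share a small RNA symbol with another gene held further pairs within 1 host. Rows shared with *Rpl13a*, a ribosomal protein gene with several box C/D RNAs, were all negative: *Snord33* fell by 0.41 (adjusted p = 0.0409, limma, and 0.0846 with the mouse as a block), while *Snord32a* (-0.13) and *Snord34* (-0.09) did not pass. *Snord68*, shared with *Rpl13*, fell by 0.45 (adjusted p = 0.0413, and 0.0932 with the block). Rows shared with *Snhg7* gave 0.91 and 0.73 for *Snora17*, both called higher, and -0.04 for *Snora43*, which did not pass. *Snora24*, shared with *Snhg8*, rose by 0.95 (adjusted p = 0.00404), while *Snora52*, shared with *Rplp2* (0.23), and *Snora3*, shared with *Rpl27a* (0.16), did not pass. The rows of *Scarna3a* and *Scarna3b*, which overlap microRNA genes, rose by 1.61 and 1.01. Which of the genes on such a row gave the signal cannot be told apart, and all were named after their values were seen.

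Of other nuclear RNAs, *Rpph1*, the RNA of ribonuclease P, rose by 0.56 (adjusted p = 0.0335, and not called with the mouse as a block). *Malat1*, a long nuclear RNA, differed by 0.12 and the Y RNA gene *Rny1* by -0.26, and neither passed. Of 1122 rows with no symbol, 375 rose and 144 fell, with a median of 0.32.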
